A study of Mus musculus with 3 samples.

Results

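Amy2a5, Prss2, Cpa1, Cpb1, Pnlip, Clps and Reg1 are genes of the pancreatic acinar cell, and they were followed here in RNA from mouse spleens that carried grafts of pancreatic islets. Every non-control probe that the array names after one of these 7 genes was taken, which gave 9 probes of 55681 and 7 of 34797 gene names, with 1 spot per probe on each array. The genes were picked with their signals on these same arrays already known, so their values describe the 3 arrays and no test was made of them. The recipients were male C57BL/6J mice made diabetic with streptozotocin, and each received 25 islets in the spleen by direct puncture and 100 islets beneath the kidney capsule (SP25+KC100). Islets came from the same strain. Spleens were taken directly after transplantation on day 0 (Sample 1), on day 2 (Sample 2), or on day 139 (Sample 3), the last from mice whose graft-bearing kidney had been removed on day 100. In the sample characteristics the graft under the kidney capsule is listed for Sample 3 only, whereas the treatment protocol gives it for every sample. Each condition has 1 array, the number of mice behind an array is not given, the methods give the age of the mice as 1 range for the whole study and not by sample, and time, kidney removal and array cannot be told apart. The 3 arrays include no spleen free of islets.

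Acinar cells make up most of the exocrine pancreas. They store digestive enzymes in zymogen granules and release them into the ducts, the proteases among them as inactive precursors. Islets lie within this tissue, and isolation by digestion can leave acinar cells attached to them. Amylase cleaves starch, trypsinogen is the precursor of the protease that activates the other zymogens, carboxypeptidases trim amino acids from the ends of peptides, and pancreatic lipase needs colipase to work on fat droplets in the presence of bile salts. Reg1 encodes a secreted C-type lectin that acinar cells make and that is known for its association with pancreatic injury and regeneration. None of these genes is a marker of the spleen.

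The probes that carry the result are 60 bases long, and 5 of the 9 are printed below 5′ to 3′, since what a signal stands for depends on which transcripts its probe can bind. Coordinates are those of the array annotation on mm9. Capitals mark the longest run of at least 12 bases shared with a probe for another gene of the same family. It was 23 bases with the Amy1 probe for the first amylase probe and 14 bases with a Prss1 probe for the Prss2 probe. Only the Amy2a5 and Prss2 probes were compared in this way, so the lower case of the Cpa1 and Clps probes says nothing about shared bases.
Amy2a5, first probe, chr3:113084781-113084840, minus strand: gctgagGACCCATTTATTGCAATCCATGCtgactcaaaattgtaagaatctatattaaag
Amy2a5, second probe, chr3:113091400-113091459, minus strand: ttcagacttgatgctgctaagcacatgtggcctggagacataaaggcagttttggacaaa
Prss2, chr6:41473937-41473996, plus strand: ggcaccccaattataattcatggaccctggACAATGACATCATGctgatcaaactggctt
Cpa1, chr6:30595240-30595299, plus strand: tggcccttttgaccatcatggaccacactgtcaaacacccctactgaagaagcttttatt
Clps, second probe, chr17:28695761-28695820, minus strand: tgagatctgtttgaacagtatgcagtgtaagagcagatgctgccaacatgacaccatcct
The second amylase probe is annotated to RefSeq transcripts of both Amy2a5 and Amy1, so its signal cannot be assigned to one of these near-identical genes. Probes not printed include those of Cpb1 (chr3:20149467-20149526, minus strand), the first probe of Clps (chr17:28695162-28695221, minus strand) and Reg1 (chr6:78378527-78378586, plus strand). Which exon each probe lies in was not analysed here.

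On these arrays Prss2, Cpa1, Cpb1, Pnlip and Reg1 were well above background in Sample 3 alone. Amy2a5 was detected throughout and highest in Sample 3, and the main probe of Clps was detected at a like level in all 3 samples. A probe is called detected here when the scanner software flagged it as well above background, and under background when it did not. Under background thus does not mean without signal. By the laxer flag of a positive and significant signal, 6 of the 7 genes passed in each of Samples 1 and 2. The share of all probes that passed the laxer flag is not given here, so whether 6 of 7 is unusual cannot be said. With the main probe of each gene, which is the one detected in the most samples, 2 of the 7 genes were detected in Sample 1, again 2 in Sample 2, and all 7 in Sample 3. The other 5 genes were detected in Sample 3 alone. Of all probes on the array, 0.966% were detected in Sample 3 alone. A probe that is detected only where it is high must differ between the samples, so this count says nothing more than the detection itself. The spleen transcripts were in place on every array, since 17 of 17 spleen markers with a probe were detected in all 3 samples. Of 55679 probes, the share detected was 54.4% on day 0, 53.8% on day 2 and 50.4% on day 139, so fewer probes overall were detected in the sample in which these genes were.

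**Figure D1:**
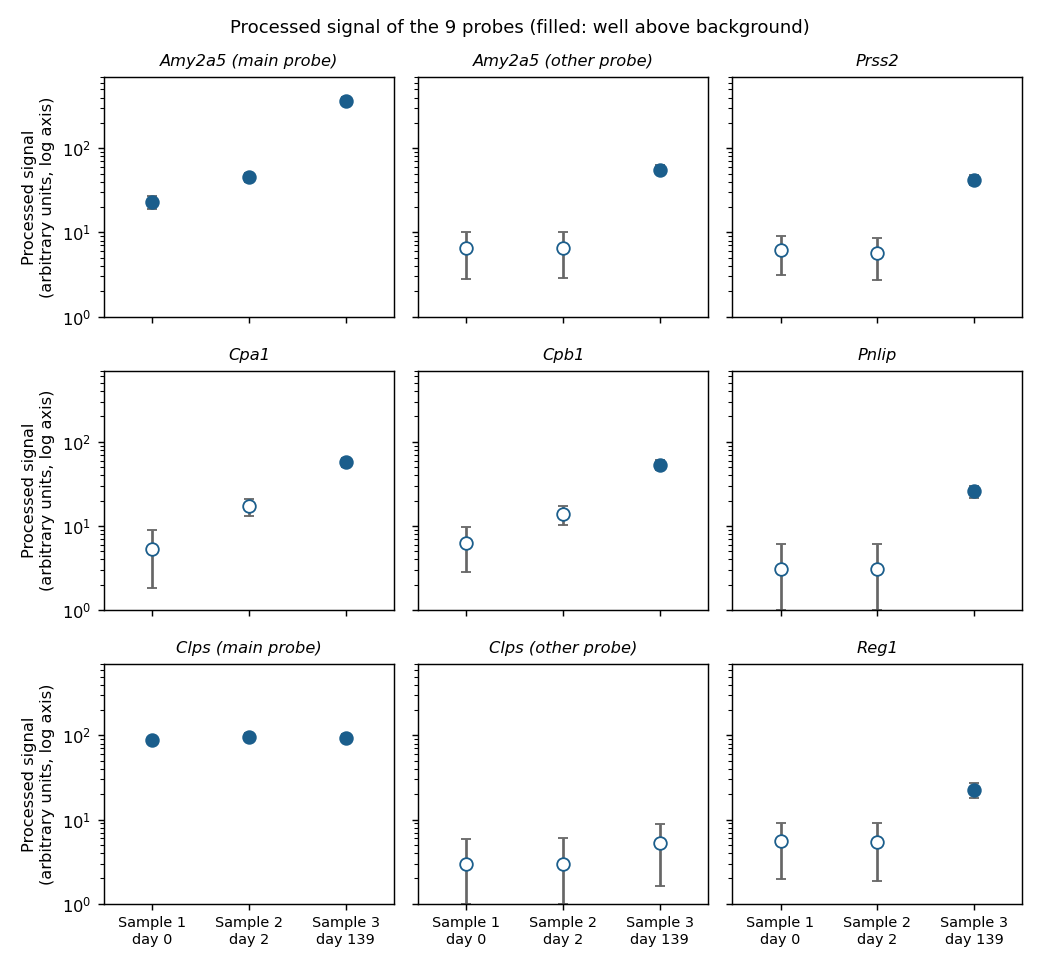
Processed signal (vertical log axis, arbitrary units) of the 9 probes in Samples 1, 2 and 3. Bars are the error estimated by the scanner software for the single spot, drawn no lower than 1, and filled points are well above background. All probes but the main probe of Clps had their highest signal in Sample 3, where 8 of the 9 were detected.

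Amy2a5, a pancreatic alpha-amylase gene, was detected on all 3 arrays with its main (first) probe. Its processed signal, which is the intensity after background subtraction in arbitrary units, was 23.1 ± 4.08 on day 0, 45.6 ± 5.64 on day 2 and 366 ± 36.8 on day 139, where ± is the error that the scanner software estimates for 1 spot and covers no variation between mice. Before background subtraction the spot means were 96.3, 122 and 412 over local backgrounds of 60, 60 and 59. Sample 3 therefore lay far above both earlier samples, and Sample 2 lay above Sample 1 by more than these spot errors. After quantile normalization the signals were 21.3, 43.4 and 404, which gave a ratio of 18.99 for Sample 3 over Sample 1 (log2 ratio 4.25 ± 0.29) and of 9.31 for Sample 3 over Sample 2 (log2 ratio 3.22 ± 0.23). The ratio of Sample 2 over Sample 1 was 2.04 (log2 ratio 1.03 ± 0.31). Among the probes detected on both arrays compared, the log2 ratio of the main Amy2a5 probe ranked 8 of 27217 for Sample 3 over Sample 1, 86 of 27220 for Sample 3 over Sample 2 and 624 of 28703 for Sample 2 over Sample 1. The second amylase probe had processed signals of 6.46 ± 3.63, 6.49 ± 3.59 and 55.7 ± 6.83 in Samples 1, 2 and 3 and was detected in Sample 3 alone. Both probes were thus highest in Sample 3. The increase from Sample 1 to Sample 2 rests on the main probe, and its size depends on how background is treated. With a normexp background correction, which adds an offset to every signal, the log2 ratio of Amy2a5 for Sample 2 over Sample 1 was 0.34. The second probe was detected in neither of these samples, and its log2 ratio of 0.17 ± 1.14 is too uncertain to show such an increase or its absence. Where a probe is under background on 1 of the arrays, a ratio is given as a lower bound, for which the dim array is set to the lowest signal detected on it unless the probe itself reads higher (normalized signals of 12.9, 14.0 and 18.2 in Samples 1, 2 and 3). On this basis the second amylase probe was at least 4.83-fold higher in Sample 3 than in Sample 1 and at least 4.45-fold higher than in Sample 2. Such bounds leave out the spot errors, and a probe that reads above the lowest detected signal can still be undetected.

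Prss2, an anionic trypsinogen, had processed signals of 6.11 ± 2.97 on day 0, 5.67 ± 2.98 on day 2 and 42.2 ± 5.41 on day 139. The signals of the first 2 samples were within each other's error and not well above background, and that of Sample 3 was. Its normalized signal was at least 3.69-fold higher in Sample 3 than in Sample 1 and at least 3.40-fold higher than in Sample 2.

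Both carboxypeptidase genes were detected in Sample 3 alone. Cpa1, which encodes the pancreatic carboxypeptidase A1 that removes aromatic and aliphatic residues, had processed signals of 5.40 ± 3.59, 17.1 ± 3.95 and 56.8 ± 6.89 in Samples 1, 2 and 3. Cpb1, which encodes carboxypeptidase B1 for basic residues, had processed signals of 6.25 ± 3.42, 13.7 ± 3.59 and 53.5 ± 6.70. Both read higher in Sample 2 than in Sample 1, yet neither was well above background in either, so no ratio is given for that pair. Cpa1 was at least 4.92-fold higher in Sample 3 than in Sample 1. Over Sample 2 its plain ratio of 3.82 (log2 ratio 1.94 ± 0.38) is no lower bound. Its normalized Sample 2 signal of 16.6 lay above the lowest detected one. For Cpb1 the bounds over Samples 1 and 2 were 4.64-fold and 4.28-fold.

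The probes of the lipid-digesting genes did not share one pattern. Pnlip, which encodes pancreatic triacylglycerol lipase, had a processed signal of 25.7 ± 4.30 in Sample 3. In Samples 1 and 2 its spots were so close to background that the software put a surrogate value in their place, 3.04 ± 3.05 and 3.04 ± 3.06. Pnlip was at least 2.24-fold higher in Sample 3 than in Sample 1 and at least 2.07-fold higher than in Sample 2. Clps, the colipase gene, was read by probes that differed from each other. The main Clps probe had processed signals of 87.3 ± 9.19, 97.0 ± 10.1 and 94.4 ± 10.02, which overlap within their errors and were well above background on every array. Its normalized signals of 82.5, 92.8 and 105 gave log2 ratios of 0.35 ± 0.22 for Sample 3 over Sample 1, 0.18 ± 0.21 for Sample 3 over Sample 2 and 0.17 ± 0.21 for Sample 2 over Sample 1. The second Clps probe, printed above, was under background on all 3 arrays, with surrogate values of 2.96 and 3.00 in Samples 1 and 2 and a processed signal of 5.21 ± 3.59 in Sample 3. The Clps probes lie near each other in the array annotation, and the arrays do not tell which of them follows the colipase transcript.

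Reg1 had processed signals of 5.58 ± 3.63 on day 0, 5.47 ± 3.61 on day 2 and 22.5 ± 4.51 on day 139. It was detected in Sample 3 alone, at 1.40 times the lowest detected signal of that array, and was at least 1.97-fold higher there than in Sample 1 and at least 1.82-fold higher than in Sample 2. Among the 538 probes detected in Sample 3 alone, whose normalized Sample 3 signals had a median of 29.0, 35.1% lay below Reg1, 50.2% below Pnlip, 79.2% below Prss2, 84.4% below Cpb1 and 85.7% below Cpa1. The signals of Reg1 and Pnlip were therefore of a size common among such probes. The bounds hold for the processed signals and depend on how background is treated. With a normexp background correction, which adds an offset to every signal, the log2 ratios of Sample 3 over Sample 1 were 0.86 for Cpa1, 0.76 for Cpb1, 0.69 for Pnlip, 0.67 for Prss2 and 0.30 for Reg1, all below these bounds, and that of Amy2a5 was 2.36. In a bulk spleen sample, fewer cells of a type and less RNA per cell cannot be told apart.

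**Figure D2:**
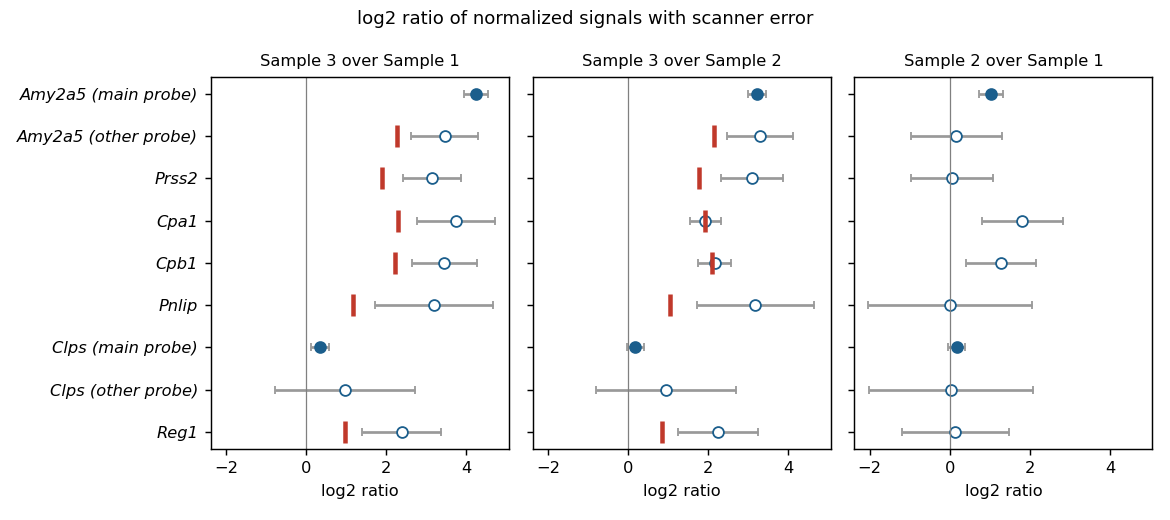
The log2 ratio of normalized signals (horizontal axis) for the 9 probes in 3 comparisons. Bars are the propagated scanner errors, filled points have both arrays well above background, open points do not, and red ticks mark the lower bound used where 1 array was detected. For Sample 3 over Sample 1 the main Amy2a5 probe lay at 4.25 and the main Clps probe at 0.35.

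The study's criteria ask for a Z-score of at least 2 with a ratio of at least 1.5 for an up-regulated probe, and a Z-score of at most -2 with a ratio of at most 0.66 for a down-regulated one. For the Z-score the log2 ratio was divided by the SD found among the 1000 probes closest to it in log2 signal averaged over the 3 arrays, so it places a probe within these arrays and measures no replicate error. For Sample 3 over Sample 1, 2.52% of 32108 detected probes passed as up-regulated and 2.21% as down-regulated. By main probe, 3 of the 7 genes passed as up-regulated, namely Amy2a5 (Z-score 5.69), Cpa1 (3.59) and Cpb1 (3.19), and 0 as down-regulated. Prss2 (1.74), Pnlip (1.45), Reg1 (1.09) and Clps (0.53) did not reach the Z-score. For Sample 3 over Sample 2, 2.39% of probes passed as up-regulated and 1.77% as down-regulated, and of the 7 genes 2 passed as up-regulated, Amy2a5 (Z-score 4.80) and Cpb1 (2.12). Cpb1 lay just inside the limit and Cpa1, with a Z-score of 1.98, just outside it. For Sample 2 over Sample 1, 1.91% of probes passed as up-regulated and 2.55% as down-regulated, and 0 of the 7 genes passed, with Cpa1 (1.99) and Amy2a5 (1.65) closest. These counts moved with the spread used, while the shares of all probes are for the window over the 3 arrays. With the 1000 probes nearest in mean signal of the 2 arrays compared, 4 genes passed for each of the comparisons with Sample 3. Since Sample 3 enters both of those comparisons, they are not independent of each other, and since the genes were chosen from these arrays, the shares above serve as a scale and nothing is read from the difference.

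The median log2 ratio over the 7 genes was 3.19 for Sample 3 over Sample 1, 2.25 for Sample 3 over Sample 2 and 0.17 for Sample 2 over Sample 1. With the bounds in place of the ratios of genes under background, the medians were 1.88 and 1.77 for Sample 3 over Samples 1 and 2. For Sample 2 over Sample 1 the 5 genes detected in neither sample have no bound. They were set to 0, which makes the median 0 whatever their signals, so it does not show an absence of change. Over all detected probes the medians were -0.02, -0.04 and 0.01.

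**Figure D3:**
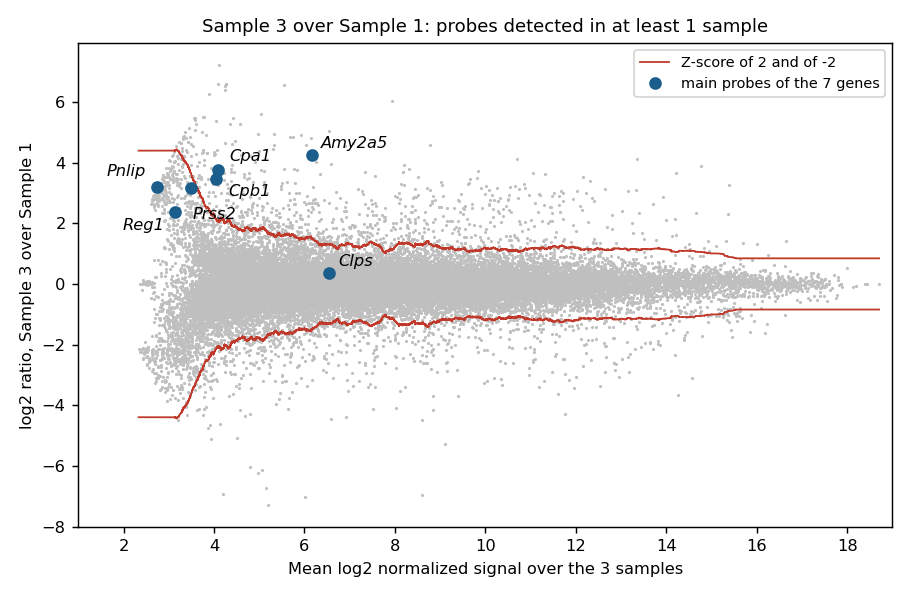
The log2 ratio of Sample 3 over Sample 1 (vertical axis) against the mean log2 normalized signal over the 3 samples for the 32108 detected probes (grey). Red lines mark Z-scores of 2 and -2, and blue points are the main probes of the 7 genes. Amy2a5, Cpa1 and Cpb1 lie above the upper line, while Prss2, Pnlip and Reg1 lie at signals where the lines are far apart.

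Among other genes of the amylase and trypsinogen families, Amy1, Try4 and Try5 read highest in Sample 3 and Prss1 was not detected. Amy1, the salivary-type amylase gene, which the liver also transcribes, had normalized signals of 30.0, 28.8 and 187 in Samples 1, 2 and 3. Its ratios of 6.21 and 6.48 for Sample 3 over Samples 1 and 2 both passed the up-regulation criteria. As the Amy1 probe shares 23 bases with the main Amy2a5 probe, cross-hybridization between the transcripts was not tested. Try4 and Try5, further trypsinogen genes, had normalized signals of 3.61, 12.96 and 43.3 and of 3.66, 13.3 and 40.9, respectively, and were detected in Sample 3 alone. Both passed as up-regulated for Sample 3 over Sample 1, at least 3.35-fold and 3.16-fold higher, and neither passed for Sample 3 over Sample 2.

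Of 33 other genes of acinar enzymes and secreted proteins, 28 had a probe and 17 were detected on at least 1 array (14 in each of Samples 1 and 2, and all 17 in Sample 3). The 3 detected in Sample 3 alone were Try4, Try5 and Cela3b. For Sample 3 over Sample 1, 3 of the 17 passed as up-regulated (Amy1, Try4 and Try5) and 1 as down-regulated. For Sample 3 over Sample 2, 2 passed as up-regulated, Amy1 and Gp2, and 1 as down-regulated. The down-regulated gene was Pdia2 in both cases, a protein disulfide isomerase abundant in the pancreas, with normalized signals of 954, 1039 and 383. Gp2, the main membrane glycoprotein of zymogen granules, had signals of 80.4, 60.8 and 158. Several enzyme genes read highest in Sample 3 without passing, such as the chymotrypsinogen gene Ctrb1 (51.4, 51.3 and 115) and the granule protein gene Sycn (22.7, 28.6 and 54.0). Others were detected on every array and did not read highest there, such as the elastase gene Cela1 (870, 599 and 603). Among genes under background on every array were Cela2a, Pnliprp1, Pnliprp2, Cuzd1, Spink3 and Rnase1. The median log2 ratios of the 17 genes were 0.71, 0.39 and 0.11 for Sample 3 over Sample 1, Sample 3 over Sample 2 and Sample 2 over Sample 1.

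Of 10 transcription factor and receptor genes of acinar cells, 6 were detected on at least 1 array. Ptf1a, the DNA-binding subunit of the acinar factor PTF1, had normalized signals of 3.33, 3.42 and 3.28, under background on all arrays, as were Nr5a2, Gata4 and the cholecystokinin receptor gene Cckar. Rbpjl, the acinar partner of Ptf1a, had signals of 22.5, 32.1 and 17.7 and was under background in Sample 3. Bhlha15 (Mist1) was the only one to pass a criterion, with signals of 143, 213 and 727 and ratios of 5.08 and 3.42 for Sample 3 over Samples 1 and 2. Bhlha15 is transcribed in acinar cells and also in plasma cells, which the spleen holds.

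Of 6 other genes of the Reg family, Reg3d alone was detected, with normalized signals of 32.0, 39.0 and 47.6 that passed no criterion. Reg2, the closest relative of Reg1 in the mouse, had signals of 3.07, 3.05 and 13.7 and was under background in all 3 samples. Reg3a, Reg3b, Reg3g and Reg4 were under background as well.

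Promoter sequences from RefSeq (GRCm38.p6) were at hand for 6 of the 7 genes, and Clps had none. PTF1 is known to bind an E box together with a TC box, so the 250 bases before each start were searched on both strands for the TC box TTTCCCA, the E boxes CAGCTG and CACCTG, and the TATA box TATAAA. The TC box was present in 3 of the 6 (Prss2, Cpa1 and Reg1) and in 6.82% of 32851 promoters. CAGCTG was found in Amy2a5 (13.0% of promoters), CACCTG in Prss2 and Cpb1 (17.2%), and TATAAA in Amy2a5, Prss2, Pnlip and Reg1 (7.59%). A TC box together with an E box occurred in Prss2 and in 1.88% of promoters. The last 200 bases before the start of Prss2, which holds both, and of Cpa1, which holds the TC box alone, are printed with the TC and E boxes in capitals, where TGGGAAA is the TC box read on the opposite strand. These boxes do not overlap each other.
Prss2, chr6:41521576-41521775, plus strand: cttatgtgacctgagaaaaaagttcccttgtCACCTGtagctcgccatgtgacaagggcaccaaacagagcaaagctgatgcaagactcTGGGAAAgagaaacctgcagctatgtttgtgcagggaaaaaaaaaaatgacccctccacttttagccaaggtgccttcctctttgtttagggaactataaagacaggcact
Cpa1, chr6:30639018-30639217, plus strand: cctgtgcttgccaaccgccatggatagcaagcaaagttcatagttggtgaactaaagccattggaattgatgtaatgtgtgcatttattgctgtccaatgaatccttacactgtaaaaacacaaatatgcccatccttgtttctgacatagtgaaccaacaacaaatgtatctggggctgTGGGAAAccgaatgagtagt
These are matches of letters in the reference sequence. The search set no distance between a TC box and an E box, and whether PTF1 binds them was not tested. In Prss2 the TC box began 111 bases and the E box 169 bases before the start, and in Cpa1 the TC box began 20 bases before it.

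Markers of other cell types moved between the same arrays, and their part in the signals of the digestive enzymes was not tested. Mesothelial cells cover the spleen, the pancreas and other abdominal organs. All 7 mesothelial markers were detected in Samples 2 and 3 and 3 of them in Sample 1, and 6 of the 7 passed as up-regulated in each of the 3 comparisons. Mesothelin (Msln) had normalized signals of 96.4, 390 and 2283, and Upk3b had 4.84, 45.5 and 459. The summed signal of the list was 1634, 2178 and 4899 in Samples 1, 2 and 3. For Sample 2 over Sample 1, where 1.91% of all detected probes passed as up-regulated, 0 of the 7 acinar genes did. Of these, 5 were detected on neither array and Cpa1 lay just outside the limit (Z-score 1.99). This count is therefore not set against that of the mesothelial markers. Wt1 (1492, 1443 and 1057) was the mesothelial gene that passed no criterion.

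Of 8 adipocyte markers 6 were detected, and 3 passed as up-regulated for Sample 3 over each of the other samples. Adiponectin (Adipoq) had normalized signals of 21.9, 21.2 and 87.0, and adipsin (Cfd) had 166, 92.0 and 1327. The summed signal was 1619, 965 and 2905, and Lep and Plin1 were under background on all arrays. Of 14 duct markers, Krt7, Krt8, Krt18 and Krt19, keratins that mesothelial cells also make, passed as up-regulated for Sample 3 over Sample 1, and Spp1 and Ambp as down-regulated. Over Sample 2, 1 duct marker (Krt19) passed as up-regulated in Sample 3 and 2 (Spp1 and Ambp) as down-regulated. Sox9, Onecut1 and Muc1 were under background on all arrays, and Epcam read 21.8, 24.5 and 33.7. The summed signal of the duct list was 830, 2499 and 1678.

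Of 22 islet endocrine markers 18 were detected. Day 139 over day 0 gave 1 up-regulated and 3 down-regulated markers. Day 139 over day 2 gave 0 and 14, respectively, and for Sample 2 over Sample 1, 14 passed as up-regulated and 0 as down-regulated. The insulin gene Ins1 had normalized signals of 27132, 36989 and 13369, and the summed signal of the list was 65191, 111466 and 34806. The summed islet signal was therefore lowest in Sample 3.

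**Figure D4:**
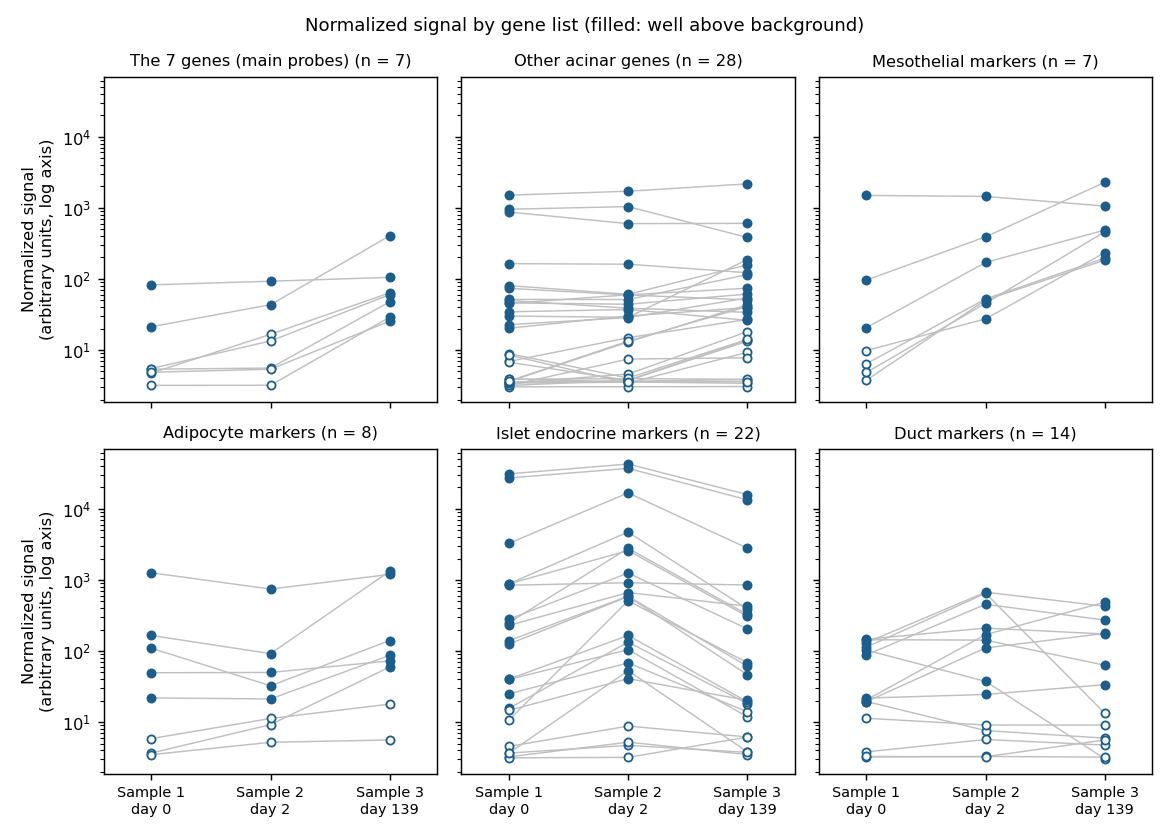
Normalized signal (vertical log axis, arbitrary units) in Samples 1, 2 and 3 for the main probes of the 7 genes and of 5 marker lists. Each line is 1 gene, n is the number of genes with a probe, and filled points are well above background. The summed mesothelial signal was 1634, 2178 and 4899, and the summed islet signal was 65191, 111466 and 34806.

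Genes for tissues next to the pancreas and enzymes of the same families made elsewhere gave a further comparison. Of 14 intestinal, stomach and salivary markers, 12 had a probe and 6 were detected, and the aquaporin gene Aqp5 (3.24, 73.7 and 31.6) was the only one to pass as up-regulated for Sample 3 over Sample 1. Gif, Gkn1, Gkn2, Smr3a and Prol1, markers of stomach and salivary gland, were under background on every array. Of 21 related enzymes of other tissues 13 were detected, of which 1 passed as up-regulated for Sample 3 over Sample 1. This was Prss34, a mast cell and basophil protease (60.1, 76.6 and 154). Cpa3, the mast cell carboxypeptidase, had signals of 64.7, 204 and 39.8, so that it was highest in Sample 2, unlike Cpa1 and Cpb1.

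The pair of log2 ratios of the main Amy2a5 probe, Sample 2 over Sample 1 and Sample 3 over Sample 1, was set beside those of the 26887 probes detected on all 3 arrays. The 5 nearest names lay at Euclidean distances of 0.41 to 0.71 on the log2 scale. Of these, the nearest had normalized signals of 9301, 16809 and 136468, far above those of Amy2a5. Nkain4 had 21.1, 61.2 and 340, and the rest read 10044, 87444 and 370 in Sample 3. All but Nkain4 are named on the array by database identifiers. With 3 samples, such likeness describes no more than 2 ratios.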

How the data were processed

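RNA from graft-bearing spleens was hybridized to one-colour Agilent SurePrint G3 Mouse arrays, 1 per condition. The labels and the paper name different purification and labeling kits. The authors deposited scanner output, which holds the intensity of each spot on a linear scale after background subtraction, before normalization between arrays, and a table of quantile normalized intensity per probe. The version of Feature Extraction is 10.7.1.1 per the file headers and 9.5.1.1 per the labels. For the 7 genes the largest log2 difference between that table and the normalized signals was 0.000997.

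Outlier spots were dropped, spots of a probe averaged, and 55679 probes quantile normalized, set to at least 1 and taken to log2. Detected probes were well above background on at least 1 array. No spot was saturated. There were no replicates, so no p-value and no SD between samples was computed, and the number of arrays limits the precision. Errors are those of the scanner software, propagated to ratios. The study gives no formula for its Z-score. Taking the 1000 nearest probes by mean signal over the 3 arrays, not the 2 compared, was settled after both had been computed.

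The genes, marker lists and alternatives were chosen with earlier results of these data known. The naming rule took all probes of the 7 genes, the 5 nearest profiles and family members. Of each list it took up to the 5 highest in Sample 3 and the 3 largest changes. Only some of the genes it gave are named here, and those left out include Erp27, Gata6, Ins2 and Fabp4. Genes beyond this rule (such as Ctrb1, Sycn, Prss34, Epcam and genes under background) were named after their values were seen. Alternatives were normexp with an offset of 50 (limma 3.58.1, R 4.3.3), 75th percentile, spike-in or no scaling, the deposited table, a floor at the lowest detected signal, outlier spots kept, 4 detection rules, a window of 250 probes, a scaled median absolute deviation, 1 SD over all probes and the median over a gene's probes. Python 3.11.15, numpy 2.4.6 and pandas 2.3.3 were used. The script that makes the calls was tested on simulated data. Some items are not reported here.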

Additional observations from a re-analysis of the deposited data

How the results depend on the processing

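With 1 array per condition, no replicate could be left out, and no paired analysis was possible because each group has a single sample. The signals near background limit the result: the log2 ratios of the 7 genes for Sample 3 over Samples 1 and 2 kept their sign under all alternatives except that of Clps over Sample 2 (-0.04 to 0.61), while their sizes moved, for Amy2a5 over Sample 1 between 2.36 and 4.59. In what follows, values over Samples 1 and 2 are for Sample 3, and "genes up" counts up-regulated genes of the 7 (3 over Sample 1, 2 over Sample 2, and 0 for Sample 2 over Sample 1 as reported). The share of all probes that passed under each alternative is not given here, so nothing is read from the size of the counts below. Normexp correction, which adds an offset to every signal, gave 5 and 4 genes up. Its medians were 0.69 and 0.61 for the 7 genes and 0.33 over Sample 1 for the other acinar genes. Spike-in scaling gave 4 genes up and a median of 2.68 over Sample 2, and medians of 1.06 and 0.80 for the other acinar genes, since the 8 spike-in controls read 1.03 and 0.658 times their Sample 1 level in Samples 2 and 3. Without scaling, 1 gene was up over Sample 2, 1 other acinar gene was up over Sample 2, and the median of the other acinar genes over Sample 1 was 0.46. Scaling to the 75th percentile and a window of 250 probes each left 1 other acinar gene up over Sample 2. With the floor at the lowest detected signal, 6 and 6 genes were up, the medians were 1.88 and 1.77, and 5 other acinar genes were up over Sample 2. Without a detection filter 5 and 5 genes were up, and 1 for Sample 2 over Sample 1. Requiring detection on all 3 arrays left Amy2a5 and Clps, with 1 and 1 genes up and medians of 2.30 and 1.70. The laxer flag of a positive and significant signal gave 6 genes detected in Sample 1 and 6 in Sample 2, 5 and 5 genes up, 1 up for Sample 2 over Sample 1, and a median of 0.66 over Sample 2 for the other acinar genes. The scaled median absolute deviation gave 4 genes up over Sample 2, 2 for Sample 2 over Sample 1, and 6 other acinar genes up over Sample 1. With 1 SD over all probes, 6 and 6 genes were up and 1 for Sample 2 over Sample 1, for which 2 other acinar genes were up. The deposited table gave 1 gene up for Sample 2 over Sample 1. The window by the 2 arrays compared, an alternative chosen after seeing the data, gave 4 genes up over Sample 2. For the causes of these shifts not named here, the cause was not tested.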
